A study of Mus musculus with 6 samples.

Results

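The genes described here are the 9 that write, copy, protect or remove cytosine methylation in the mouse embryo: Dnmt1 and Uhrf1, Dnmt3a, Dnmt3b and Dnmt3l, Tet1, Tet2 and Tet3, and Dppa3. They were taken by a list of names, drawn up with earlier results of these data known, from the 55378 genes of the deposited exon count table, and all 9 were among the 15619 genes with enough counts to be tested. Zygotes were microinjected with a negative control siRNA (siRNA-NC, called NC below) or with siRNA-Eif4a3 (the knockdown), and embryos were collected on day 5 as blastocysts. Pools of 5 embryos gave 3 libraries per group by Smart-seq2, which copies whole polyadenylated transcripts from small amounts of RNA. No strain, parent, sex or genetic modification is named in the labels, so p-values measure only the spread between these pools, which may share parents. Every embryo had been injected, so no uninjected group stands beside them.

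Methylation of cytosine in CpG dinucleotides is copied after DNA replication by DNMT1, which UHRF1 brings to newly made, half-methylated DNA. New methylation is set by DNMT3A and DNMT3B, helped by DNMT3L, which is related to them but has no catalytic activity of its own. TET enzymes oxidise 5-methylcytosine, the first step of active demethylation, and DPPA3, a maternal protein, protects methylation in the zygote and can also keep UHRF1 from chromatin. In the mouse, most inherited methylation is lost before the blastocyst stage and new methylation is laid down around implantation, while imprinted regions keep theirs.

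In the knockdown, RNA of Dnmt1, Uhrf1, Dnmt3b and Tet1 fell, and no gene of the 9 rose (0 higher also at an unadjusted edgeR p under 0.05 and by DESeq2, which called 6 lower). The 4 became 2, Dnmt3b and Tet1, without NC replicate 1 or without knockdown replicate 3, 3 without NC replicate 2 or knockdown replicate 2, and 5 without knockdown replicate 1. Of the remaining genes, Dnmt3a and Tet2 were lower in all 3 knockdown libraries than in any NC library but did not pass the test, and Dnmt3l, Tet3 and Dppa3 had overlapping groups. The 4 that fell stand beside a background of 5.56% of all tested genes lower and 7.52% higher (edgeR quasi-likelihood test, Benjamini-Hochberg adjusted p under 0.05). The 6 genes with groups that did not overlap were all lower, where 16.4% of all tested genes were. The median log2 fold change of the 9 genes was −1.22, and that of all tested genes was 0.03. Within Dnmt3l, grouped after its block values were seen, the exons before an internal start (blocks 4 to 12) fell and the exons at that start (blocks 13 and 14) were higher, and the gene's sum showed neither. The rise at the internal start lost its call with the replicate block (edgeR adjusted p 0.0655) and in 4 of the 6 fits with 1 library left out.

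**Figure D1:**
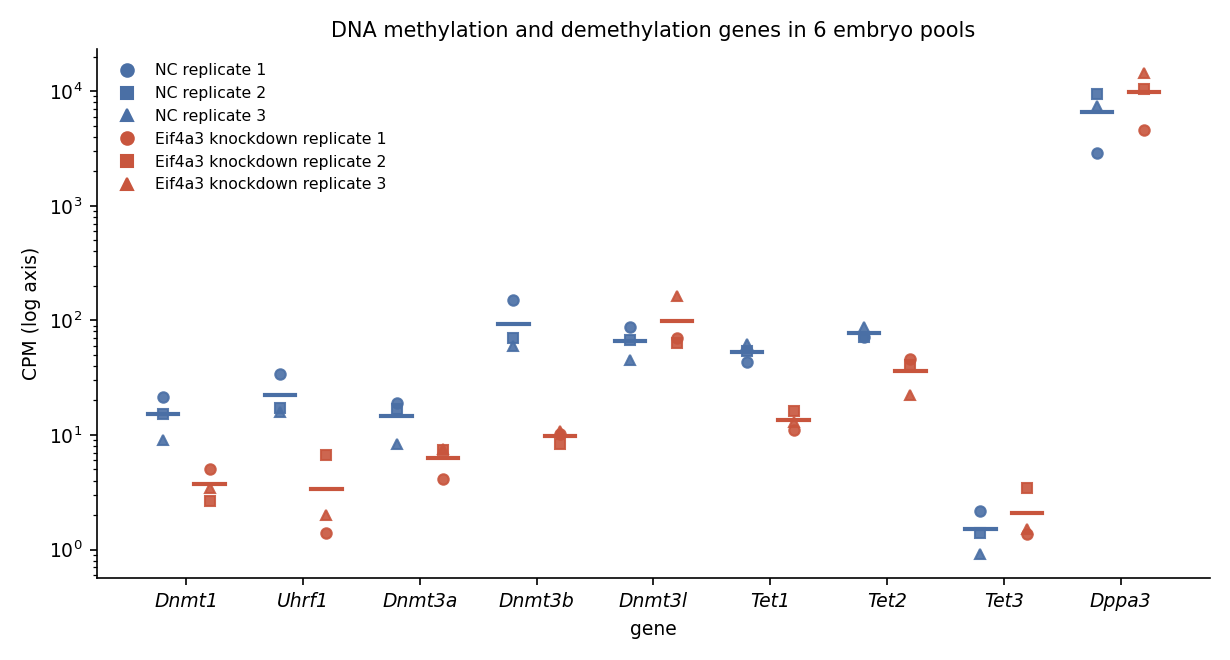
Level of each of the 9 genes in the 6 libraries, in counts scaled to library size (CPM) on a log axis; points are libraries and bars are group means. Dnmt1, Uhrf1, Dnmt3a, Dnmt3b, Tet1 and Tet2 are lower in all 3 knockdown libraries than in all 3 NC libraries, and Dppa3 lies far above the others.

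The targeted gene checked the labels. Eif4a3, the RNA helicase of the exon junction complex, measured 302, 255 and 202 CPM in NC replicates 1 to 3 and 16.0, 36.2 and 56.2 CPM in knockdown replicates 1 to 3 (log2 fold change −2.81, standard error 0.44, edgeR adjusted p 0.00512). With only its most counted block the log2 fold change was −1.52 (adjusted p 0.0403). Summed counts per library were 15607227 to 18697754. All tested blastocyst lineage markers had log2 fold changes below 0, and part of them passed the test. Of trophectoderm markers 4 of 9 were lower (summed level 2486 to 6304 CPM in NC and 571 to 2231 CPM in the knockdown). For epiblast and inner cell mass it was 4 of 10 (576 to 722 and 240 to 323 CPM), and for primitive endoderm 4 of 7 (693 to 843 and 313 to 357 CPM). Over all tested genes 5.56% were lower and 7.52% higher. Cdx2, Krt8, Nanog, Pou5f1 and Gata6 were among the markers that did not pass, with overlapping groups. All 8 tested markers of the 2-cell stage were higher, with sums of 0.398 to 0.597 CPM in NC and 92.9 to 295 CPM in the knockdown. Being near 0 in NC, these markers passed the count filter through the knockdown libraries, so a higher call was close to given. Tdpoz4 and Duxf3, also on that list, had too few counts to be tested. Of 7 oocyte markers, 1 was higher and 1 lower, with sums of 84.2 to 141 and 38.7 to 95.6 CPM. The higher one, Oosp1, was at 0 in all NC libraries and also passed the filter through the knockdown. Blood markers summed to 7.09 to 55.6 CPM in NC and 3.66 to 7.57 CPM in the knockdown, with 2 of 5 lower. Fibroblast markers summed to at most 11.7 CPM with 0 of 2 changed. Cumulus and sperm markers summed to at most 2.47 CPM in any library, and Has2, Ptx3, Fshr and Amh were at 0 in all 6. The part of these shifts in the results below was not tested. In pools of whole embryos, fewer cells of a type and less RNA per cell cannot be told apart.

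Compared per kilobase of exon, the levels of the 9 genes spanned several orders of magnitude in NC. The length was that of all merged blocks, also unused ones, while counts came from the most counted line of each block. A spliced pair also counts in several blocks, so the order of genes with short and long exons is approximate. Dppa3 stood at 7353 ± 3714 CPM per kb (SD, n = 3), followed by Dnmt3l at 22.3 ± 7.05 and Dnmt3b at 18.3 ± 9.81, whose libraries overlapped. Next came Uhrf1 at 5.24 ± 2.37 and Tet2 at 4.55 ± 0.507, which also overlapped, then Tet1 at 3.44 ± 0.631 and Dnmt1 at 2.07 ± 0.857, which overlapped with each other. The libraries of Uhrf1 overlapped those of Tet1 too. Dnmt3a followed at 0.887 ± 0.339 CPM per kb and Tet3 was lowest at 0.0899 ± 0.0384, each below the libraries of the gene before it. In the knockdown, Dppa3 (10983 ± 5472) and Dnmt3l (33.1 ± 18.6) remained highest. Tet2 at 2.15 ± 0.726 CPM per kb then stood beside Dnmt3b at 1.91 ± 0.256, and Tet1 at 0.872 ± 0.168 beside Uhrf1 at 0.792 ± 0.685. The lowest knockdown levels were 0.504 ± 0.166 CPM per kb for Dnmt1, 0.381 ± 0.116 for Dnmt3a and 0.126 ± 0.0700 for Tet3.

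Both genes of maintenance methylation fell. Dnmt1 (chr9:20907209-20959888, minus strand, GRCm38) measured 21.6, 15.3 and 8.99 CPM in NC and 5.06, 2.67 and 3.43 CPM in the knockdown. All knockdown libraries were below the lowest NC library, and NC replicate 1 was the highest. The fold change was 4.11-fold lower (log2 −2.04, standard error 0.45, edgeR adjusted p 0.0178). These levels rest on 44 to 435 counts, and the edgeR call was lost without NC replicate 1 (adjusted p 0.0664), NC replicate 2 (0.0608), knockdown replicate 2 (0.0639) or knockdown replicate 3 (0.0536), where all alternatives ranged from 0.000246 to 0.0664. The fall was seen toward the 3′ end, where each of blocks 32 to 39 was lower without overlap. Blocks 2 to 12 had overlapping groups on few counts, as in block 6 (8, 8 and 3 in NC, 6, 1 and 4 in the knockdown). Only 4 of the 39 blocks, 36 to 39, could be tested for usage (described below), and 0 passed.

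Uhrf1 (chr17:56303321-56323486, plus strand) measured 34.0, 17.2 and 15.8 CPM in NC and 1.41, 6.72 and 1.99 CPM in the knockdown. Knockdown replicate 2 was the highest of its group and still below every NC library. The mean was 6.62-fold lower (log2 −2.73, standard error 0.61, edgeR adjusted p 0.0186, from 30 to 683 counts). The log2 fold change was −3.72 without knockdown replicate 2 and −1.86 with only the most counted block. Without NC replicate 1 the adjusted p was 0.0576 and without knockdown replicate 3 it was 0.0598, and all alternatives lay between 2.4e-07 and 0.0598.

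Of the de novo enzymes, Dnmt3b changed most. Dnmt3b (chr2:153649450-153687730, plus strand), the de novo methyltransferase best known from the early embryo, measured 151, 69.5 and 60.2 CPM in NC. In the knockdown it measured 10.1, 8.30 and 10.8 CPM, a narrow group far under the lowest NC library. That was 9.61-fold lower (log2 −3.26, standard error 0.41, edgeR adjusted p 0.00226), and the call was kept in all 13 alternatives, with log2 fold changes from −3.52 to −2.75. None of the 20 tested exon blocks of Dnmt3b, out of 24, passed the test of usage described below.

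Dnmt3a (chr12:3806007-3914443, plus strand), the other catalytic de novo enzyme, measured 19.15, 16.7 and 8.40 CPM in NC and 4.12, 7.39 and 7.52 CPM in the knockdown. The groups did not overlap, but NC replicate 3 was within 1 CPM of the highest knockdown library. The log2 fold change of −1.22 (standard error 0.43) had an edgeR adjusted p of 0.0884. DESeq2 gave an adjusted p of 0.0373, and the alternatives together ranged from 0.0373 to 0.494, the last with only the most counted exon block of the gene.

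Dnmt3l (chr10:78041947-78063622, plus strand) measured 87.2, 67.1 and 45.1 CPM in NC and 69.6, 63.8 and 163 CPM in the knockdown. Knockdown replicate 3 was the highest of all 6 libraries and the other knockdown libraries lay inside the NC range. The log2 fold change was 0.57 (standard error 0.41, edgeR adjusted p 0.381). Without knockdown replicate 3 it was −0.00325 (adjusted p 0.996), and with only the most counted block, the last of the gene, it was 1.24 (adjusted p 0.0424), the ends of the range over the 13 alternatives.

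The count table is per exon, so Dnmt3l could be read along its length. Its exons merged into 18 blocks, numbered from the 5′ end. In the GENCODE vM21 annotation of GRCm38, the coding transcripts Dnmt3l-201 and Dnmt3l-208 start in blocks 4 and 5, run through block 12, join it to block 15 and encode 421 codons. Dnmt3l-205 starts further upstream, in block 2, and encodes the same 421 codons. Dnmt3l-202, Dnmt3l-203 and Dnmt3l-206 start in block 13, at position 78055335, which lies in an intron of the full-length transcript, and encode 126 codons, 29.9% of the full length. Blocks 15 to 18 are shared. Sequence around these 3 starts, from 250 bases before to 50 after, is shown because the counts on either side of the last one moved in opposite directions. It comes from RefSeq on GRCm38.p6, where 8 of the 9 genes had an entry, on the plus strand, 5′ to 3′, with CpG dinucleotides in capitals.
Dnmt3l, furthest upstream start, chr10:78042037-78042336: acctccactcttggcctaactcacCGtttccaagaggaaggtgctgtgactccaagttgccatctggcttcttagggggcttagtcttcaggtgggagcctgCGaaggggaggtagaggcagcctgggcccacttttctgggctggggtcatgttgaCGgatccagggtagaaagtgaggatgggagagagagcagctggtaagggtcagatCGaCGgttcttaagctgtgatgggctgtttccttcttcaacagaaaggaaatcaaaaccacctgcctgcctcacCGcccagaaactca
Dnmt3l, start of the full-length transcript at block 4, chr10:78049592-78049891: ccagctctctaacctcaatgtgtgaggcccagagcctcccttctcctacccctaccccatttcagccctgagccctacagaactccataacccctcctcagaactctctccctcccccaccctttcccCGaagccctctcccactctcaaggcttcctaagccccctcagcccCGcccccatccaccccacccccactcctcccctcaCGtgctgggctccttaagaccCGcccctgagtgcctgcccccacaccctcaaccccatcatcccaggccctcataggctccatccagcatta
Dnmt3l, internal start at block 13, chr10:78055085-78055384: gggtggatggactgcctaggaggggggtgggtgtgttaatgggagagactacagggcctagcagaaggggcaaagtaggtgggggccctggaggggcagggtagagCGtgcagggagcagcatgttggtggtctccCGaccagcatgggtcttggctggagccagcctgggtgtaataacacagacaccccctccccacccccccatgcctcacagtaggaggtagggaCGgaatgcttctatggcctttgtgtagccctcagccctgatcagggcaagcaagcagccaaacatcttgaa
The windows hold 6, 4 and 3 CpG dinucleotides in that order, where the median over all 32851 RefSeq windows of this length is 7 and that over the 15 windows of the methylation genes is 18. The hexamer GGGCGG, searched on both strands, occurred 1, 2 and 0 times, and 35.7% of all windows hold it. These matches describe letters only.

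Use of the 5′ blocks fell. Usage compares a block with the other blocks of its gene (edgeR diffSpliceDGE), and 5 of the 14 tested Dnmt3l blocks passed, all lower: blocks 7, 9, 10, 11 and 12. Over all genes 0.168% of 67890 tested blocks passed in either direction, and 0.0442% were lower. A spliced pair was counted in every block it overlapped, so neighbouring blocks share reads and the 5 are not separate results. The largest change was in block 12, the last before the internal start, at 5.47, 2.32 and 1.71 CPM in NC and 0.422, 0.606 and 0.301 CPM in the knockdown. Its usage was lower by a log2 value of −3.41 (edgeR adjusted p 0.00915), and that of the other 4 by −2.66 to −3.18 (adjusted p 0.0104 to 0.0460). Blocks 1 to 3 held at most 1 count in any library. Fitted with the replicate number as a block, no Dnmt3l exon block passed. None passed without NC replicate 1 or NC replicate 2 either, 3 passed without NC replicate 3, 2 without knockdown replicate 1, and 1 without knockdown replicate 2 or 3. With the blocks of a gene combined (Simes), Dnmt3l alone of the 9 genes passed (edgeR adjusted p 0.0111), where 0.906% of 9494 tested genes did. That p was 0.160 with the replicate block and 0.0349 to 0.232 with 1 library left out, under the threshold only without NC replicate 3. Tet3 had 0 blocks with enough counts and was not tested here, and Dnmt1, Dnmt3a and Uhrf1 had only 4, 3 and 5 tested blocks.

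**Figure D2:**
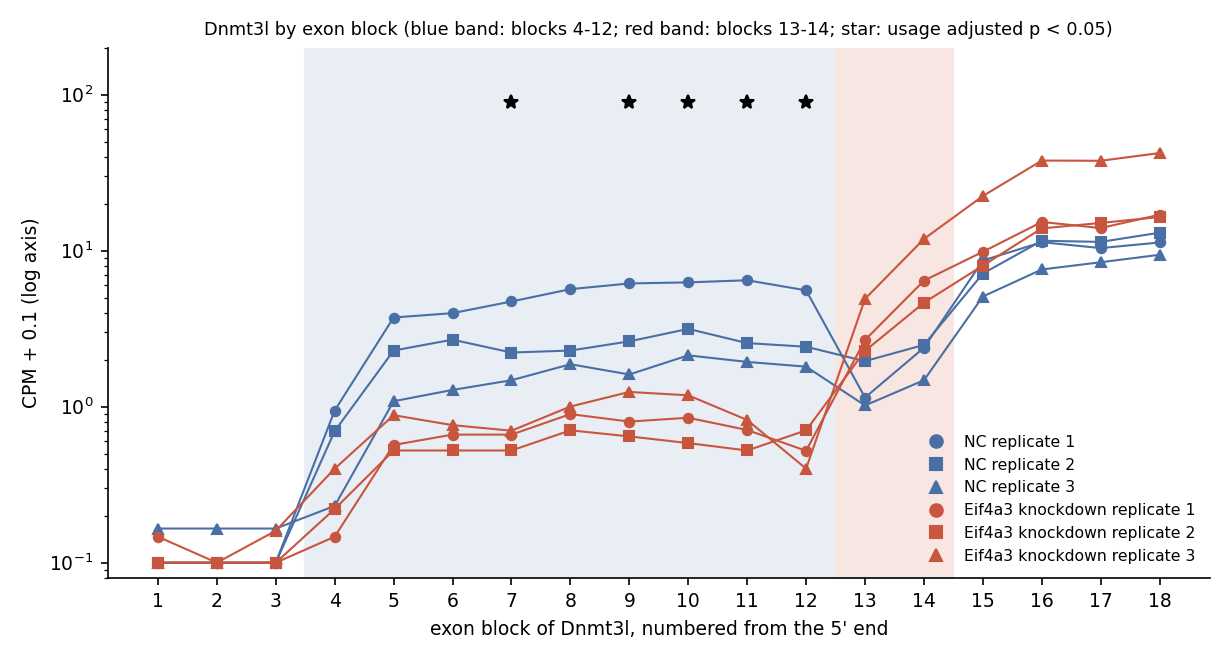
Dnmt3l in each of its 18 exon blocks, as CPM plus 0.1 on a log axis; each line is 1 library, and stars mark the 5 blocks whose usage changed. From block 5 to block 12 every NC line lies above every knockdown line, and at blocks 13, 14 and 16 to 18 every knockdown line lies above every NC line.

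Counted as 3 units in place of 1 gene, a grouping made after the block values were seen, Dnmt3l moved in both directions. Blocks 4 to 12, the exons before the internal start, measured 42.6, 20.1 and 12.53 CPM in NC and 4.92, 4.06 and 6.50 CPM in the knockdown. No libraries overlapped, and the mean was 4.86-fold lower (log2 −2.28, standard error 0.48, edgeR adjusted p 0.0148 over 15621 features). Without NC replicate 1 the log2 fold change was −1.67 (adjusted p 0.0499). The call was lost without knockdown replicate 2 (adjusted p 0.0595) and kept in the other 8 alternatives run. Blocks 13 and 14, found among coding transcripts only in the shorter ones, measured 3.33, 4.25 and 2.30 CPM in NC and 8.90, 6.72 and 16.6 CPM in the knockdown. Here too no libraries overlapped, in the opposite direction, and the mean was 3.26-fold higher (log2 1.70, standard error 0.47, edgeR adjusted p 0.0416). That call was lost with the replicate block (0.0655) and without NC replicate 1 (0.0999), NC replicate 2 (0.0902), NC replicate 3 (0.124) or knockdown replicate 3 (0.145), and DESeq2 gave 0.00484. The shared blocks 15 to 18 measured 41.3, 42.8 and 30.1 CPM in NC and 55.7, 53.1 and 140 CPM in the knockdown (log2 1.12, edgeR adjusted p 0.0925, and 0.0492 by DESeq2). Without knockdown replicate 3 the log2 fold change was 0.51 (adjusted p 0.355), and the remaining alternatives gave adjusted p-values of 0.0601 to 0.241.

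The ratio of blocks 4 to 12 over blocks 13 and 14, which does not depend on library scaling, was 12.8, 4.72 and 5.46 in NC and 0.553, 0.604 and 0.391 in the knockdown. Every NC library had more counts upstream of the internal start and every knockdown library more at it. On the log2 scale the ratio went from 2.79 ± 0.78 to −0.98 ± 0.33 (SD, n = 3), a difference of −3.77, with an exact two-sided permutation p of 0.1, the smallest that 3 against 3 allow. As a sign of 5′ coverage over other genes, the share of counts in the blocks before the middle of the gene was read in 6117 genes with at least 8 blocks and 20 counts in every library. Its median was 31.8%, 29.2% and 31.5% in NC and 36.2%, 30.9% and 34.6% in the knockdown. A median over many genes does not show the 5′ coverage of Dnmt3l, whose part in the ratio was not tested. Counts in blocks 13 and 14 could also come from unspliced full-length RNA, which was not tested. Exons of Aire overlap 2.24% of the Dnmt3l exon length.

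**Figure D3:**
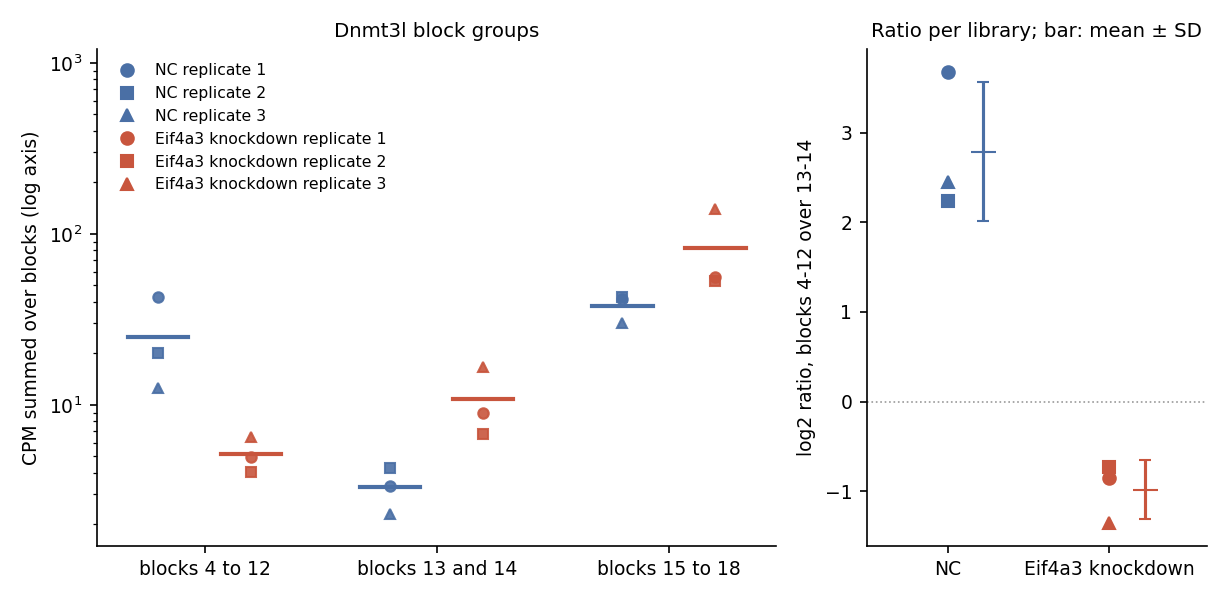
Left, CPM on a log axis summed over the 3 groups of Dnmt3l blocks, with libraries as points and group means as bars; right, log2 ratio of blocks 4 to 12 over blocks 13 and 14 per library, with mean ± SD beside the points. The upstream group is lower and the internal group higher in all 3 knockdown libraries, and the ratio is above 0 in NC and below 0 in the knockdown.

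Tet1 and Tet2, the TET enzymes with substantial RNA at this stage, were both lower in all knockdown libraries. Tet1 (chr10:62804570-62908996, minus strand) measured 43.2, 53.7 and 62.7 CPM in NC and 11.2, 16.3 and 12.9997 CPM in the knockdown. The gap between the groups was larger than the range of either. Tet1 was 3.94-fold lower (log2 −1.98, standard error 0.31, edgeR adjusted p 0.00521), and it kept this call in all 13 alternatives, with log2 fold changes from −2.14 to −1.64.

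Tet2 (chr3:133463679-133545139, minus strand) measured 71.7, 72.0 and 86.7 CPM in NC and 45.7, 40.7 and 22.4 CPM in the knockdown. The groups did not overlap, and the log2 fold change was −1.08 (standard error 0.32, edgeR adjusted p 0.0534). DESeq2 gave an adjusted p of 0.0163, edgeR with no low-count filter 0.0251 and edgeR without knockdown replicate 1 0.0343, and the alternatives ranged from 0.0163 to 0.136. Tet3 (chr6:83362373-83459084, minus strand), the TET enzyme known from the zygote, measured 2.19, 1.39 and 0.919 CPM in NC and 1.36, 3.45 and 1.505 CPM in the knockdown, from 14 to 57 counts. Its groups overlapped (log2 fold change 0.48, edgeR adjusted p 0.644), and the estimate was −0.0725 without knockdown replicate 2. No difference in Tet3 was detected.

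First exons were read for the genes known to have alternative promoters. Dnmt1 had 0 to 4 counts per library in its 5′-most blocks, and Tet3 had 0 to 3 in its first exons. Dnmt3a had 0 in its first exons at blocks 1 to 4, 7 and 14 to 16. Its first exons at blocks 6 and 10, which other transcripts also hold, had at most 5 and 11. Promoter use of Dnmt1, Tet3 and Dnmt3a could therefore not be compared. In Tet1, block 4, the first exon of 1 annotated transcript, held 17, 28 and 35 counts in NC and 2, 1 and 1 in the knockdown. As a share of Tet1 counts that was 3.03% ± 0.933 and 0.558% ± 0.248 (SD, n = 3, exact permutation p 0.1). Its usage did not pass the test (edgeR adjusted p 0.526), and with all distinct lines of the block summed the difference of shares was −1.05 instead of −2.47 percentage points. Blocks 5 and 6 of Tet1, first exons of other transcripts, held 9.09% ± 2.54 and 11.3% ± 4.77 of its counts with overlapping groups. Block 7, a coding exon of 6 annotated transcripts and the first exon of Tet1-201 alone, held 33.3% ± 5.19 and 24.95% ± 9.48, also overlapping. Its share therefore does not measure the use of a start. In Dnmt3l the first exons at blocks 4 and 5 held 3.92% ± 1.35 of the gene's counts in NC and 0.753% ± 0.0953 in the knockdown, and block 13 held 2.001% ± 0.788 and 3.36% ± 0.379 (exact permutation p 0.1 for each, n = 3). With all distinct lines of the block summed, the rise in block 13 was 0.630 instead of 1.36 percentage points. Blocks 13 and 14 together held 5.08% ± 1.26 and 11.2% ± 1.42. Which blocks were joined was decided after the counts were seen. Of all 182 exon blocks of the 9 genes, 74 could be tested for usage. None of the 60 outside Dnmt3l passed in edgeR, with 1 higher and 4 lower at an unadjusted p under 0.05.

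Dppa3 (chr6:122626410-122630272, plus strand) was by far the most abundant of the 9. It measured 2905, 9369 and 7401 CPM in NC and 4623, 10447 and 14320 CPM in the knockdown. Replicate 1 was the lowest of each group and the groups overlapped (log2 fold change 0.58, standard error 0.52, edgeR adjusted p 0.486, alternatives 0.0700 to 0.861). Dppa3 has a processed pseudogene, Dppa3-ps, so reads shared by both copies make its level uncertain.

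Among 7348 named genes with at least 10 CPM in a group, the closest in pattern over the 6 libraries to the 4 genes that fell were listed as a description, from the same libraries and scaling. For Dnmt1 they were Ctnna1 (Pearson r of log2 CPM 0.999) and Mcm5 (0.995), a catenin of cell junctions and a subunit of the replicative helicase. For Dnmt3b they were Myo1e (0.997), an unconventional myosin, and Xpo5 (0.995), which exports microRNA precursors. For Uhrf1 they were Rai14 (0.990) and Wdr26 (0.990), and for Tet1 Timp1 (0.993), a metalloproteinase inhibitor, and Ubap1 (0.993).

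Genes that work with the methylation enzymes were read from lists named for their roles. Of 10 tested maintenance partners, 2 were lower and none higher (0 also at an unadjusted edgeR p under 0.05 and by DESeq2, which called 4 lower), with a median log2 fold change of −0.95, where 5.56% of all tested genes were lower. The 2 became 1 without any 1 library. Ehmt2, a histone H3 lysine 9 methyltransferase, measured 19.0, 15.5 and 14.3 CPM in NC and 5.44, 1.76 and 2.41 CPM in the knockdown, with no overlap (log2 −2.34, standard error 0.48, edgeR adjusted p 0.0129). Without knockdown replicate 1 the log2 fold change was −3.003. Lig1, the ligase that joins Okazaki fragments, had a log2 fold change of −0.96 with an edgeR adjusted p of 0.0496. That call was lost without any 1 of the 6 libraries (0.0548 to 0.148) and passed only in DESeq2 among the 13 alternatives, whose range was 0.0130 to 0.481. With only the most counted block of Lig1 the log2 fold change was −0.39.

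Of the partners in imprint protection and heterochromatin silencing, 5 of 9 were lower with a median of −1.12, beside the same background of 5.56%. No gene was higher by edgeR, and 2 were at an unadjusted p under 0.05 and by DESeq2. At the unadjusted p they were Zfp445 (log2 1.26, edgeR adjusted p 0.0667) and Cbx1 (0.84, 0.0722), named after their values were seen. Zfp445 measured 10.8, 14.5 and 7.68 CPM in NC and 27.2, 36.3 and 15.4 CPM in the knockdown. Both had higher groups that did not overlap, as 20.1% of all tested genes did. Zfp57, the zinc finger protein that binds methylated imprinting control regions, measured 10.4, 15.4 and 27.3 CPM in NC and 0.750, 2.30 and 1.38 CPM in the knockdown, far apart (log2 −3.58, standard error 0.55, edgeR adjusted p 0.00500). Trim28, the corepressor that ZFP57 recruits, measured 159, 176 and 116 CPM in NC and 40.0, 53.5 and 54.6 CPM in the knockdown (log2 −1.60, standard error 0.29, edgeR adjusted p 0.00840). Zfp57 and Trim28 kept their calls in all 13 alternatives. Cbx5, a heterochromatin protein, fell by 1.63 on the log2 scale (edgeR adjusted p 0.0213), Setdb1, a histone H3 lysine 9 methyltransferase, by 1.28 (0.0308) and Atrx, a chromatin remodeller, by 1.12 (0.0419). Those 3 calls did not hold with every library left out. Cbx5 was lost without any NC library or knockdown replicate 3 (0.0520 to 0.0635). Setdb1 was lost without any NC library or knockdown replicates 2 or 3 (0.0543 to 0.10), and also with all exon lines summed (0.0655) or only the most counted block (0.0515), and Atrx without NC replicates 2 or 3 or any knockdown library (0.0661 to 0.139). With 1 library left out the list had 4 lower genes without knockdown replicate 1, 3 without NC replicate 1 or knockdown replicate 2, and 2 without NC replicate 2, NC replicate 3 or knockdown replicate 3.

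Genes of active demethylation and base excision repair gave 3 of 18 lower, median −0.31, again beside 5.56% of all tested genes. The 3 became 0 without NC replicate 2, knockdown replicate 2 or knockdown replicate 3, 1 without NC replicate 1, 2 without NC replicate 3, and 5 without knockdown replicate 1. By edgeR 0 were higher, with 2 at an unadjusted p under 0.05 and 2 by DESeq2. Parp1, a sensor of DNA breaks, had a log2 fold change of −1.43 (edgeR adjusted p 0.0203), Lig3, the ligase of that repair pathway, −1.39 (0.0236) and Ogt, which binds TET proteins and adds O-GlcNAc to proteins, −1.15 (0.0310). All 3 had lower groups that did not overlap, as 16.4% of all tested genes did, but none of the calls survived the loss of every library. Parp1 and Lig3 lost theirs when NC replicate 1, NC replicate 2, knockdown replicate 2 or knockdown replicate 3 was left out (0.0546 to 0.0809). Ogt lost its call without NC replicates 2 or 3 or any knockdown library (0.0502 to 0.104), and with only its most counted block (0.0694). Exons of Rffl overlap 25.1% of the Lig3 exon length, so reads there cannot be told apart.

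Among 9 genes of methyl donor supply, Ahcy alone was lower and the median was −0.23. Ahcy removes S-adenosylhomocysteine, the product that inhibits methyltransferases, and had a log2 fold change of −1.66 (edgeR adjusted p 0.0348). The call was lost without any NC library or knockdown replicates 2 or 3 (0.0696 to 0.115), and with all exon lines summed (0.0528). Without knockdown replicate 1 the log2 fold change was −2.33. None of 9 de novo targeting genes passed the edgeR test (median −0.45), with 1 at an unadjusted p under 0.05 and 0 by DESeq2. Their smallest p-values belonged to Nsd2, a histone H3 lysine 36 methyltransferase (log2 −1.40, adjusted p 0.109), and Kdm1b, the histone demethylase needed for methylation in oocytes (−0.78, adjusted p 0.183). The same counts held for the 6 tested genes of the list called methyl-CpG readers (0 by edgeR, 1 unadjusted, 0 by DESeq2, median −0.71). On it, Mbd2 stood at −1.48 (edgeR adjusted p 0.142) and Mbd3 at −0.98 (0.170). Being on this list does not show that a gene's protein binds methylated CpG. Mbd2 turned to 0.82 with only its most counted block.

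**Figure D4:**
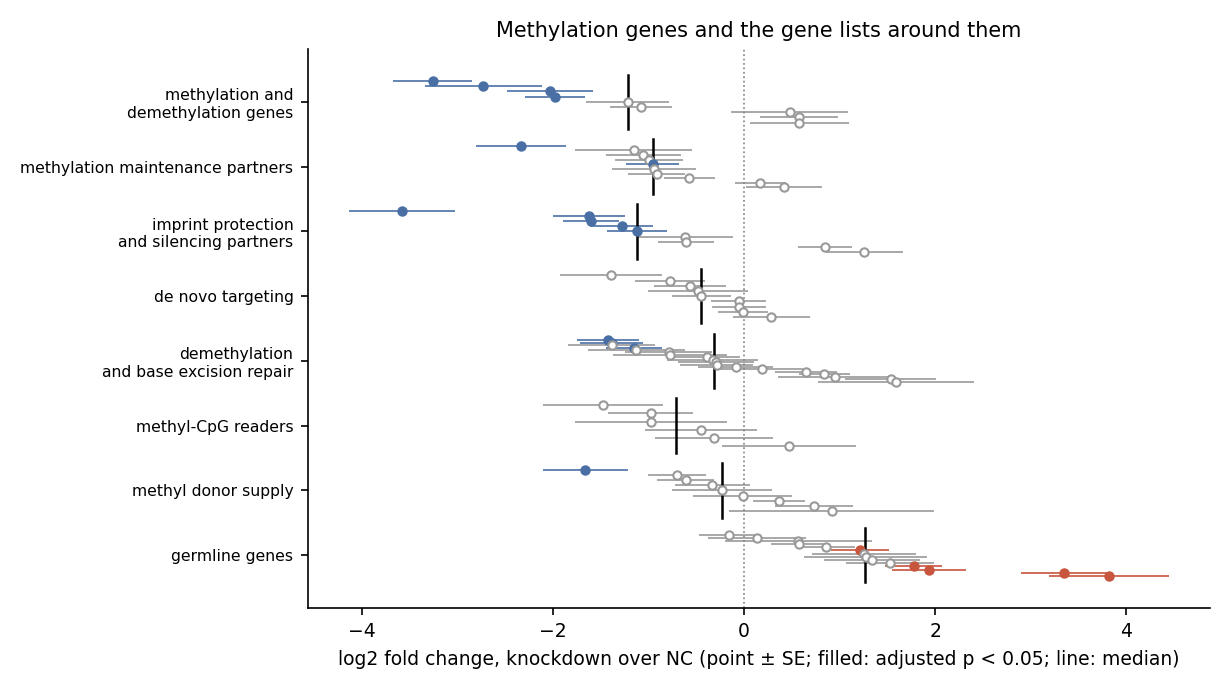
Log2 fold change of knockdown over NC ± standard error for the 9 methylation genes and for the tested genes of 7 lists; filled points have an adjusted p under 0.05 and black lines are medians. Filled points lie to the left in the upper rows (Dnmt3b at −3.26, Zfp57 at −3.58) and to the right among germline genes.

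Germline genes, several of which are textbook cases of silencing by CpG methylation of their promoters in somatic and embryonic cells, went the other way. Of 14 tested, 5 were higher and none lower, where 7.52% of all tested genes were higher. At an unadjusted edgeR p under 0.05, 9 were higher and 0 lower, and DESeq2 called 7 and 0. In 9 of the 14 all knockdown libraries exceeded all NC libraries, which held for 20.1% of all tested genes. The list's median log2 fold change was 1.26. Methylation itself was not measured.

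Hormad1, a protein of the meiotic chromosome axis, measured 7.81, 14.9 and 19.4 CPM in NC and 129, 87.3 and 213 CPM in the knockdown. The lowest knockdown library was several times the highest NC library (log2 3.35, standard error 0.45, edgeR adjusted p 0.00307). Tex101, a surface protein of male germ cells, measured 0.647, 1.86 and 2.30 CPM in NC and 9.37, 22.2 and 36.0 CPM in the knockdown (log2 3.82, standard error 0.63, edgeR adjusted p 0.00581). Its groups were also far apart, on a low NC level, and the log2 fold change was 4.91 with only the most counted block.

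Sycp1, which bridges paired chromosomes in the synaptonemal complex, measured 22.3, 27.6 and 34.2 CPM in NC and 89.4, 84.7 and 113 CPM in the knockdown (log2 1.77, edgeR adjusted p 0.00628). Asz1, a factor of the piRNA pathway, measured 63.3, 69.3 and 24.2 CPM in NC and 192, 218 and 188 CPM in the knockdown, with NC replicate 3 the lowest (log2 1.93, edgeR adjusted p 0.0126). Dpep3, a dipeptidase of testis, went from 60.0 ± 15.7 to 139 ± 31.8 CPM (SD, n = 3; log2 1.21, edgeR adjusted p 0.0292). Hormad1, Tex101, Sycp1 and Asz1 kept their calls in all 13 alternatives, while Dpep3 lost it without any 1 of the libraries (0.0528 to 0.107).

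The other 9 did not pass. Mael, another piRNA factor, had a log2 fold change of 1.53 (edgeR adjusted p 0.0528) and the RNA helicase Ddx4 one of 1.34 (0.105). Dazl, an RNA-binding protein of germ cells, stood at 1.27 (0.213) and Tex19.1 at −0.16 (0.771). These 4 were named after their values were seen. Exons of Chpt1 overlap 52.2% of Sycp3, whose counts are uncertain for that reason. The 2-cell markers given above were higher in the same knockdown libraries, and their relation to the germline genes was not tested.

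Promoter windows of 2 of the higher germline genes are shown for their CpG content, again from RefSeq on GRCm38.p6, 5′ to 3′ on the gene's strand, with CpG dinucleotides in capitals.
Hormad1, plus strand, chr3:95559427-95559726: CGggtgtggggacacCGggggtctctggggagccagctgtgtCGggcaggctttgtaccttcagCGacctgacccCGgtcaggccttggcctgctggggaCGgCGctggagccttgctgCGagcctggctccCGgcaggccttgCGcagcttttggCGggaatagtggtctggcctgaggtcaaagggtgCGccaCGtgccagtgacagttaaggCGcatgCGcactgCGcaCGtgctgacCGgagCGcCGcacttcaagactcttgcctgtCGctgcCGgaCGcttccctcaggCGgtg
Asz1, minus strand, chr6:18109012-18109311: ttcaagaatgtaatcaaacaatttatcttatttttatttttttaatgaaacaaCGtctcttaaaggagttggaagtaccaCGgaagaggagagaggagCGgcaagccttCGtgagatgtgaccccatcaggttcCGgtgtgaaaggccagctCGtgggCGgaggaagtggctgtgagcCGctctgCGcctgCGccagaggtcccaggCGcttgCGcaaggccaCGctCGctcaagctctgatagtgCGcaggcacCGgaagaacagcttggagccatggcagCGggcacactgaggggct
They hold 24 and 17 CpG dinucleotides. The 20 windows of all 16 listed germline genes had a median of 21.5 and a range of 3 to 38. All windows had a median of 7 and an upper quartile of 20, and the internal Dnmt3l window holds 3. The window with 38 is that of Ddx4, which did not pass the test, and Dpep3, which passed, holds 12. A relation of CpG content to the change was not tested.

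**Figure D5:**
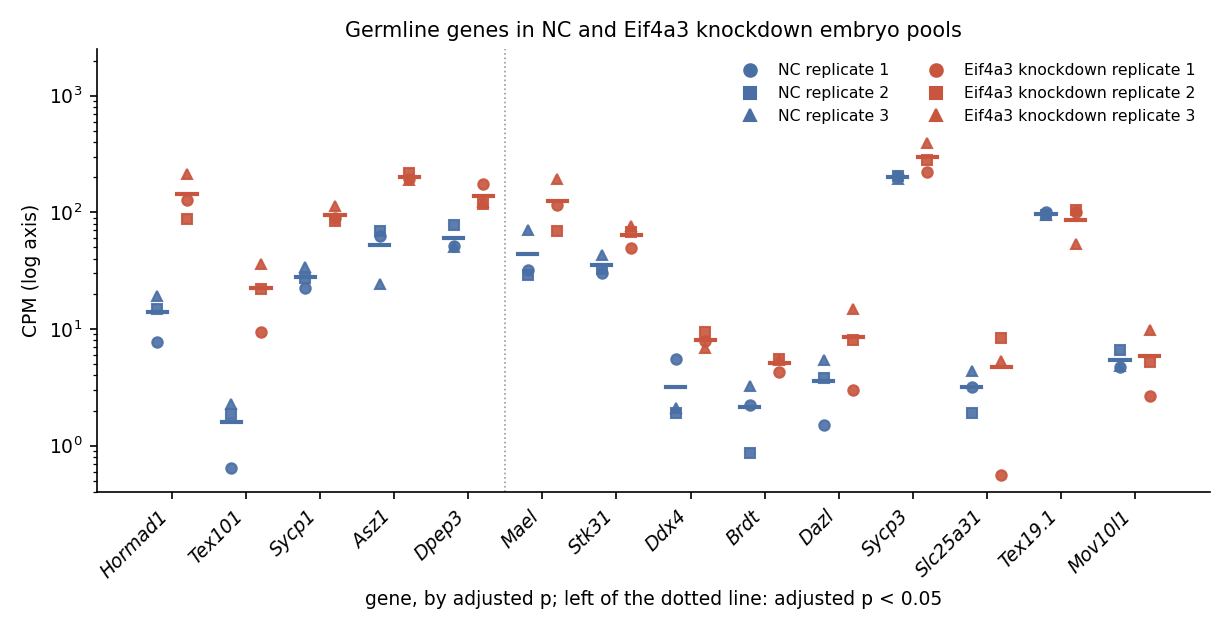
CPM on a log axis of the 14 tested germline genes in the 6 libraries, ordered by adjusted p, with libraries as points and group means as bars. Left of the dotted line are the 5 genes that passed the test, each with all 3 knockdown libraries above all 3 NC libraries.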

How the data were processed

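RNA was measured by Smart-seq2 and paired 150-base reads in 6 libraries, 3 per group, grouped by the sample titles. Per the submitters' processing notes, FastQC 0.11.9, fastp 0.20.1, STAR 2.7.6a, featureCounts 2.0.1, R 4.1.1 and DESeq2 1.34.0 were named, with GRCm38. The file headers show that the authors ran featureCounts on exons, with each pair counted in every exon it overlapped and with strand setting 2. The unit is therefore the raw count of each deposited exon line, where the planned test had assumed genes. Smart-seq2 does not mark strand, so pairs in the other orientation are missing, and overlapping genes cannot be told apart where they share exons.

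From the 842173 lines, 449500 distinct exons were merged within genes into 291424 blocks. Each block took its most counted line, and blocks were summed per gene, so a spliced pair counts in several blocks. Of 55378 genes, 55102 matched a symbol. Genes were tested with edgeR 4.0.16 (R 4.3.3; filterByExpr, TMM, glmQLFit, glmQLFTest, two-sided, Benjamini-Hochberg over 15619 genes, threshold 0.05), block usage with diffSpliceDGE over 67890 blocks, and single values with exact permutation. CPM are per effective library size. Scripts were tested on simulated data.

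The 9 genes and all lists were chosen with earlier results of these data known. All 9 genes are named. From each pathway list the genes past the threshold are named, up to 6 by smallest p, or the 2 with the smallest p where none passed, and exceptions are stated. The lists cover maintenance partners, imprint protection, de novo targeting, demethylation and base excision repair, methyl-CpG readers, methyl donor supply, germline genes, and markers of trophectoderm, epiblast, primitive endoderm, 2-cell stage, oocyte, cumulus, sperm, blood and fibroblast. Alternatives were DESeq2 1.42.0, other size factors, filters and gene counts, a replicate block, and leaving out each library. The labels name no pairing, so groups were compared as unpaired. Same-numbered libraries of both groups had deviation correlations of 0.22, 0.00 and 0.09, where the other pairs across groups had −0.19 to 0.15.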

Additional observations from a re-analysis of the deposited data

How the results depend on the processing

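Over all genes, the 1174 higher and 869 lower calls became 1829 and 1490 with DESeq2 and 2089 and 1518 with no low-count filter, and lay between 550 and 1224 and between 336 and 1130 with 1 library left out. Of the 9 methylation genes, 4 were lower in the reported fit and 2 to 5 with 1 library left out, and 1 was higher (Dnmt3l) when only the most counted block was used. No filter moved the median log2 fold change of all genes to 0.17, while the other settings kept it between −0.02 and 0.07.

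The 5 Dnmt3l blocks with changed usage became 0 with the replicate number as a block, and 0 to 3 with 1 library left out, while that block left the count of 4 lower genes at 4, and it ended the calls of Dnmt3l blocks 13 and 14 and of Lig1 and no other call among the genes named. The labels name no pairing, and correlations of 0.22, 0.00 and 0.09 over so few libraries cannot settle whether the numbers pair them. The lost calls are therefore a limit of the results for the Dnmt3l blocks and Lig1. Maintenance partners had 2 lower genes, 4 with DESeq2 and 1 with other size factors, no filter, a filter of 5 CPM, all exon lines summed, or any 1 library left out. With 1 library left out, 2 to 4 imprint protection partners (of 5), 0 to 5 demethylation genes (of 3) and 0 to 1 methyl donor genes (of 1) were lower, the last also 0 with all lines summed, and 4 to 5 germline genes (of 5) were higher.

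With all lines of a block summed, the rise in the share of Dnmt3l block 13 was 0.630 instead of 1.36 percentage points and the fall in Tet1 block 4 was −1.05 instead of −2.47. The rise in Tet1 blocks 5 and 6 of 2.20 points ranged from −0.479 to 4.07 with 1 library left out, turning without knockdown replicate 3. With 1 library left out, the log2 fold change of Dnmt3l ranged from −0.00325 (without knockdown replicate 3) to 0.81 and that of Tet3 from −0.0725 (without knockdown replicate 2) to 0.84. Both turned direction, as did Mbd2 (0.82 with the most counted block), and none of these had been called. The cause of these shifts was not tested. Tet3 and the first exons rest on few counts per library.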
